A study of Mus musculus with 6 samples.

Results

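The Plxna2 locus of mouse chromosome 1 was described across the first 48 h of retinoic acid treatment. Its members were the listed chromatin contacts with at least 1 of their 2 bins centred between 196,300,001 and 196,750,000 (build mm9), a stretch of 450 kb that holds Plxna2 near 196.445 to 196.645 Mb. There were 875 such contacts of 3,654,010 on the nuclear chromosomes and 245,926 on chromosome 1. The locus was picked because counts in its window of 50 kb from 196,500,001 were higher at 48 h than at 0 h and 6 h in the same libraries. All values of 48 h against 0 h or 6 h are therefore a description without a test, and 6 h against 0 h is the comparison that was tested. Just inside the left edge a bin had 3, 2 and 8 interactions at 0, 6 and 48 h, against 3, 2 and 5 just outside, and at the right edge it was 4, 5 and 5 inside against 9, 8 and 8 outside.

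The cells were P19, a mouse embryonal carcinoma line grown as a monolayer on gelatine-coated plates in medium with fetal and delipidated calf serum. Untreated cells (T0) were set beside cells given all-trans retinoic acid (ATRA) at 1e-06 M for 6 h (T6) or 48 h (T48), with 2 Hi-C libraries in each of the 3 groups. No untreated cells of 6 h or 48 h are among the samples, so ATRA and time in culture cannot be told apart. Whether the replicates were separate cultures is not stated, so the tests measure the spread between these libraries, which may be technical.

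Plexin-A2, the product of Plxna2, is a cell-surface receptor for semaphorins, the guidance cues of growing axons. It takes up secreted semaphorins together with neuropilin co-receptors and also binds transmembrane semaphorins directly, and its intracellular part signals to the cytoskeleton. In the nervous system it is known for roles in axon steering, in the layering of the hippocampus and in the migration of cerebellar granule cells. Hi-C counts how often 2 stretches of DNA were ligated in fixed nuclei, so it reports contacts of the gene and not its RNA. In a population of cells, a contact in more cells and a closer contact in the same cells cannot be told apart.

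An interaction here is a pair of bins of 5 kb that the authors deposited as a replicated significant contact, with the raw count of read pairs in each library. A count of 0 means that the pair was not listed at that time point, not that contact was absent, and both replicates of a time point are always 0 together. The sum of listed counts was 50,154,643 and 29,644,373 in T0 cells, 40,561,360 and 23,003,295 in T6 cells, and 43,500,876 and 29,554,481 in T48 cells (replicates 1 and 2). The median count of a listed pair of the locus was between 9 and 20 in the 6 libraries, so single pairs rest on few reads. The deposited counts carry no stated correction for the coverage of a bin, so higher coverage and more contact cannot be told apart.

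The RefSeq annotation used here is of another build, so it was used for names and order alone. In it the long non-coding RNA gene Gm46202 lies inside Plxna2, the microRNA gene Mir3962 follows it, and the nearest protein-coding genes are Camk1g before it and Cd34 after it. The promoter of Plxna2 is shown for reference, and the mm9 bin that holds it was not determined. It is the RefSeq sequence of GRCm38.p6, chr1:194619579-194619878, plus strand, which is not on the scale of the mm9 positions of the contacts, and capitals mark the letters GGGCGG of the GC box.
Plxna2 promoter: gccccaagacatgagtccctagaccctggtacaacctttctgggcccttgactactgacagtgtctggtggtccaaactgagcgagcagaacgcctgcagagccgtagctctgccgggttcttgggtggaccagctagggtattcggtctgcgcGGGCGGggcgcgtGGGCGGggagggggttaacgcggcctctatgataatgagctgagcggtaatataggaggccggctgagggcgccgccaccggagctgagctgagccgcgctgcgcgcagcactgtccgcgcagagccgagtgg
The GC box, searched on both strands, had 2 matches that do not overlap, and 35.9% of 32,544 mouse promoters of the same length hold it. AGGTCA, the half-site bound by retinoic acid receptors, had 0 matches on either strand, against 16.2% of promoters with at least 1. These letters are a description of the window and locate no bound factor.

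The number of contacts of the locus was similar in T0 and T6 cells and larger in T48 cells. The locus had 402 listed interactions in T0 cells, 408 in T6 cells and 521 in T48 cells, which is 1.30 times as many in T48 cells as in T0 cells. Over all nuclear chromosomes the T48 list was 0.955 times as long as the T0 list, and on chromosome 1 it was 0.860 times as long. Of the 875 pairs, 151 were listed at all 3 time points, 137 in T0 cells alone, 154 in T6 cells alone and 279 in T48 cells alone. Pairs listed in T48 cells alone made up 53.6% of the T48 list of the locus. That share was 48.9% over the genome and 39.5% on chromosome 1. These numbers belong to a time point and not to a library, so they have no replicate error.

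The larger list in T48 cells was held by 2 bins inside the gene. The first covers 196,510,001 to 196,515,000 and the second 196,520,001 to 196,525,000, about 67.5 and 77.5 kb into Plxna2 from the start taken here. The first had 11, 10 and 68 interactions in T0, T6 and T48 cells, and the second had 11, 14 and 74. The bin between them, from 196,515,001, had 11, 10 and 6. With the pairs of both bins left out, the locus had 381, 385 and 380 interactions in T0, T6 and T48 cells. Both bins were picked for the largest gains in listed contacts, so leaving them out had to lower the number in T48 cells. Without them the T48 list of the locus was 0.997 times as long as the T0 list. That ratio was 0.955 over the genome and 0.860 on chromosome 1.

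**Figure D1:**
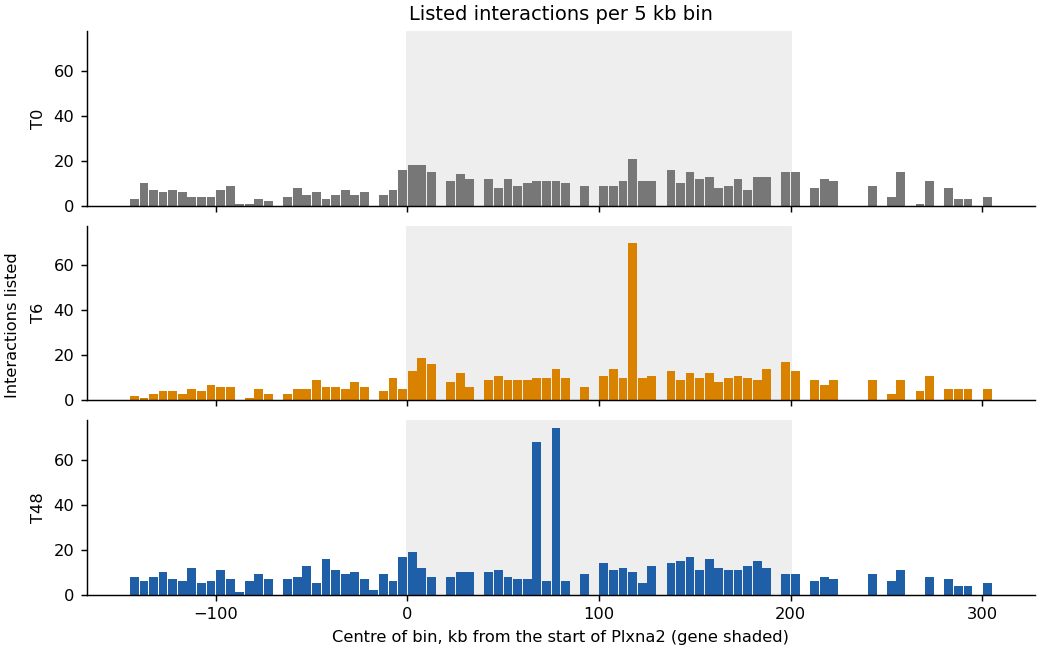
Interactions listed per bin of 5 kb (vertical axis, same scale in each panel) in T0, T6 and T48 cells, against the position of the bin in kb from the start of Plxna2 (shaded). The highest bins are 1 in T6 cells, with 70 interactions, and 2 in T48 cells, with 68 and 74, while no bin exceeds 21 in T0 cells.

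Of the 90 bins of the locus, 75 had a listed interaction at some time point and 15 had none. The median number per bin with any was 9 at each time point. Between T48 and T0, 39 bins differed upwards, 30 downwards and 6 not at all, and outside the 2 bins these differences lay between -11 and 13. The next bins in order of gain lay upstream of the gene, from 196,400,001 (3, 6 and 16 interactions in T0, T6 and T48 cells), 196,330,001 (4, 5 and 12) and 196,390,001 (5, 5 and 13). The largest losses lay in the gene, from 196,560,001 (21, 70 and 10), 196,455,001 (15, 16 and 8) and 196,450,001 (18, 19 and 12). Across the genome, 34 of 376,858 bins with any listed contact gained at least 50 interactions in T48 over T0 cells (0.00902%), and 26 of these lay on chromosome 1, while 0 bins of the locus were among the 192 that lost at least 50 (0.0509%). Bins with at least 60 interactions made up 0.125%, 0.111% and 0.0719% of all bins in T0, T6 and T48 cells, and the locus held 0, 1 and 2 of them. Most such bins lay on chromosome 1, with 305 of 472 in T0 cells, 273 of 417 in T6 cells and 185 of 271 in T48 cells. These limits were set after the values of the locus were seen, so they place the bins without testing them.

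The bin at the start of the gene, from 196,445,001, showed no such gain. The bin before it, from 196,440,001 and on the other side of the gene start taken here, had 16, 5 and 17 interactions in T0, T6 and T48 cells. The bin from 196,445,001 had 18, 13 and 19. Scaled to 1,000,000 listed counts of the library (listed CPM), its summed counts were 4.85 and 5.30 in T0 cells, 6.16 and 6.04 in T6 cells, and 5.75 and 6.60 in T48 cells. The next bin into the gene, from 196,450,001, had 7.68 and 7.22 listed CPM in T0 cells, 7.08 and 7.56 in T6 cells, and 4.87 and 5.11 in T48 cells. The T48 values of this bin lay below those of both other times in both libraries, with 12 listed interactions. Over its pairs present in every list the lower value was not seen, with a log2 T48 over T0 ratio of 0.051 (SE 0.13) and 0.15 (SE 0.13) over T6.

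In counts, both bins were high in both T48 libraries. The first had 8.39 and 8.47 listed CPM in T0 cells, 8.16 and 8.48 in T6 cells, and 40.1 and 38.98 in T48 cells. The second had 6.98 and 7.29 in T0 cells, 9.32 and 9.56 in T6 cells, and 38.6 and 40.7 in T48 cells. The replicates of a time point lay close together, and the T48 libraries did not overlap with the others. Of the 141 pairs of the 2 bins in T48 cells, 112 were listed at neither other time. Over the genome 48.9% of the T48 list was listed in T48 cells alone, and on chromosome 1 it was 39.5%. The 2 bins were picked for their gain in listed contacts, so a high number of such pairs was built in. Restricted to pairs present in every list, the T48 over T0 ratio on the log2 scale was 1.63 (SE 0.12) for the first bin and 1.72 (SE 0.11) for the second. The bin between them had 1.02 (SE 0.10), and this sum includes its pairs with each of the 2.

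**Figure D2:**
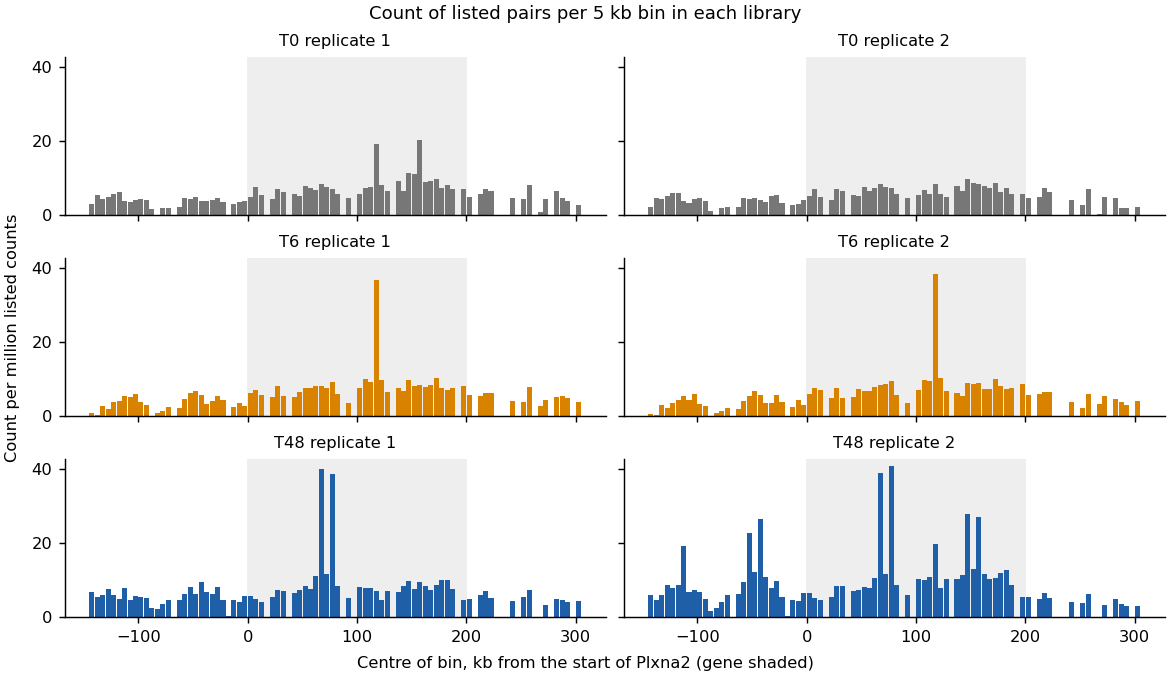
Listed CPM of each library, summed over the pairs of each bin of 5 kb (vertical axis, same scale), against the position of the bin in kb from the start of Plxna2 (shaded), with 1 panel per library. The 2 bins near 40 listed CPM stand out in both T48 libraries, the bin at 36.8 and 38.3 listed CPM in both T6 libraries, and further high bins in T48 replicate 2 and T0 replicate 1 alone.

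The strongest single gain joined the 2 bins to each other. Their pair, 10 kb apart, had counts of 45 and 28 in T0 cells, 44 and 26 in T6 cells, and 315 and 174 in T48 cells. Both T48 counts lay far above the others, with a log2 ratio of T48 over T0 of 2.82 (SE 0.24). The 4 pairs in the fit of 1 of these bins with an adjacent bin had smaller ratios, from 1.26 to 1.67. The pair of the second bin with the bin from 196,525,001 had counts of 65 and 39 in T0 cells, 70 and 32 in T6 cells, and 180 and 127 in T48 cells (log2 1.67, SE 0.20). The pair of the first bin with the bin from 196,505,001 had 91 and 60 in T0 cells, 78 and 50 in T6 cells, and 272 and 163 in T48 cells (log2 1.60, SE 0.24). The pair of the second bin with the bin between them had 86 and 54 in T0 cells, 80 and 51 in T6 cells, and 241 and 158 in T48 cells (log2 1.61, SE 0.22). At 15 and 55 kb, the pairs of the second bin with the bins from 196,505,001 and 196,465,001 had log2 ratios of 1.43 (SE 0.22) and 1.39 (SE 0.27). In each of these pairs both T48 counts lay above all T0 and T6 counts of the same replicate number. All 12 pairs of the 2 bins that entered the fit had a positive ratio, from 0.95 to 2.82. Without their pair with each other, the median ratio was 1.16 for the first bin and 1.41 for the second. Whether their own pair rose beyond the rise of each bin with its other partners was not tested.

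Across the locus, 15 of 144 pairs in the fit were at least 2-fold higher in T48 cells than in T0 cells, where the share over all 496,203 pairs was 0.628%. Over T6, 14 were at least 2-fold higher, where that share was 0.578%. Since the locus was chosen on these contrasts, nothing is read from the counts. Of the 15, 10 belonged to the 2 bins. The other 5 joined bins upstream of the gene between 196,320,001 and 196,410,000 and were high in T48 replicate 2. The clearest of them, between the bins from 196,390,001 and 196,400,001, had counts of 45 and 26 in T0 cells, 39 and 20 in T6 cells, and 43 and 161 in T48 cells (log2 1.79, SE 0.68). Without T48 replicate 2 its log2 ratio was 0.13, so its height rests on that library.

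The contacts of the 2 bins in T48 cells reached far beyond the gene and fanned out over many partners. The first bin had 38 of its 68 partners inside the locus and 29 inside the gene, and the second had 40 of 74 and 30. Partners lay on both sides, with 46 upstream and 22 downstream for the first bin and 53 and 21 for the second. The most distant lay 1270 kb upstream and 425 kb downstream. The 2 bins shared 39 partner bins, which is 57.4% of the partners of the first and 52.7% of those of the second.

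Counts of these contacts were lower the further apart the bins lay. The 12 pairs of the 2 bins within 20 kb had a median of 95 and 57.5 counts in the T48 libraries, the 20 pairs over 20 and up to 50 kb had 28.5 and 22, and the 25 pairs over 50 and up to 100 kb had 13 and 10. The 19 pairs over 100 and up to 200 kb had 8 and 6, and the 25 over 200 and under 500 kb had 5 and 4. Beyond 500 kb there were 40 pairs, all absent from the T0 and T6 lists. The same held for 51 of the other 53 pairs of the locus listed that far apart in T48 cells. The 40 pairs had medians of 3 to 4 counts where the lowest count in the whole table is 3. Each such far contact alone is therefore at the limit of what the list can show. Of the far partners, the bin centred on 195,517,500, chosen after its values were seen, had the highest count in 1 library, 13 and 3 with the first bin and 4 and 6 with the second.

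**Figure D3:**
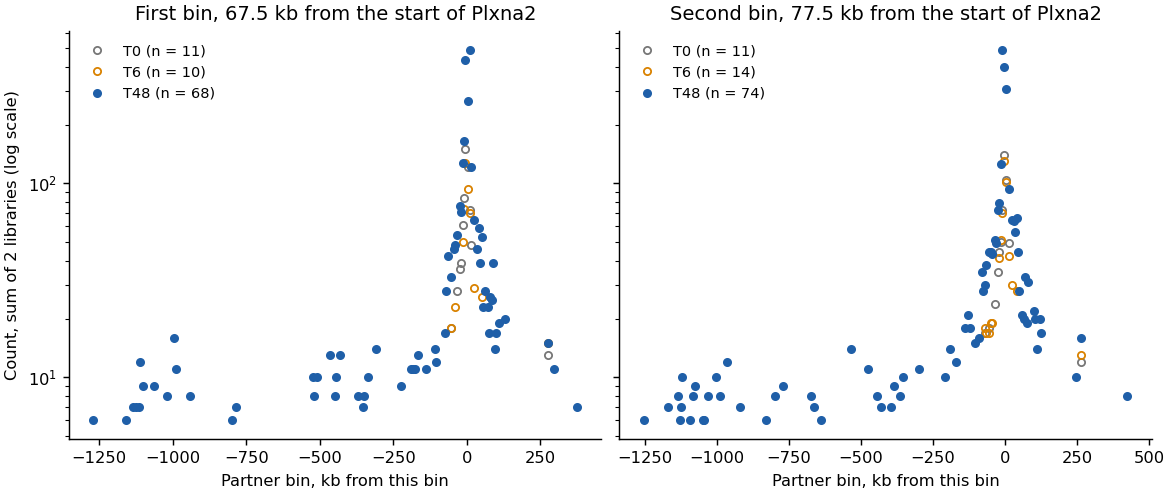
Summed count of the 2 libraries (log scale) of each listed pair of the first and of the second bin, against the distance to the partner bin in kb, for T0, T6 (open) and T48 (filled). At T48 the 68 and 74 pairs spread to 1270 kb upstream, while in T0 and T6 cells between 10 and 14 pairs lie mostly close by.

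Long contacts made up more of the locus in T48 cells. Pairs of at least 500 kb numbered 33 in T0 cells, 33 in T6 cells and 93 in T48 cells, which is 8.21%, 8.09% and 17.9% of the list. Over the genome these shares were 11.6%, 11.4% and 15.2%. Of the 93 in T48 cells, 40 belonged to the 2 bins and 53 did not. Contacts of the gene with sequence upstream of it numbered 25, 43 and 111 in T0, T6 and T48 cells. Those with sequence downstream numbered 55, 63 and 29. Both directions together numbered 80, 106 and 140. Most of the 140 belonged to the 2 bins, with 29 of 68 and 30 of 74 partners inside the gene. In T0 cells 10 of 11 partners of each lay inside. The bin from 196,560,001 had 31 of 70 partners inside in T6 cells, against 13 of 21 in T0 cells. The directions were not counted without these bins, so a rise upstream is not shown for the rest of the gene. The 16 downstream pairs listed at all 3 time points had 9.55 and 8.18 counts per 1,000,000 of such pairs in T0 cells, 9.73 and 8.66 in T6 cells, and 6.59 and 9.21 in T48 cells, so the groups overlapped there. All 16 end in 1 bin, from 196,785,001, whose contacts are described below. Contacts with both bins in the gene numbered 163, 163 and 177.

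The higher count of the window that led to the choice of the locus lay in pairs of the same 2 bins. Counts were summed per 50 kb over pairs listed at all 3 time points and scaled to 1,000,000 of the summed window counts (CPM), with a pair inside 1 window counted once. From 196,500,001 to 196,550,000 the CPM was 33.1 and 33.6 in T0 cells, 32.6 and 33.7 in T6 cells, and 65.5 and 66.0 in T48 cells. The log2 T48 over T0 ratio was 0.98 (SE 0.052) and that of T48 over T6 was 0.99 (SE 0.053). With the pairs of the 2 bins left out, a choice made after their values were seen, these ratios were -0.00085 and 0.048.

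**Figure D4:**
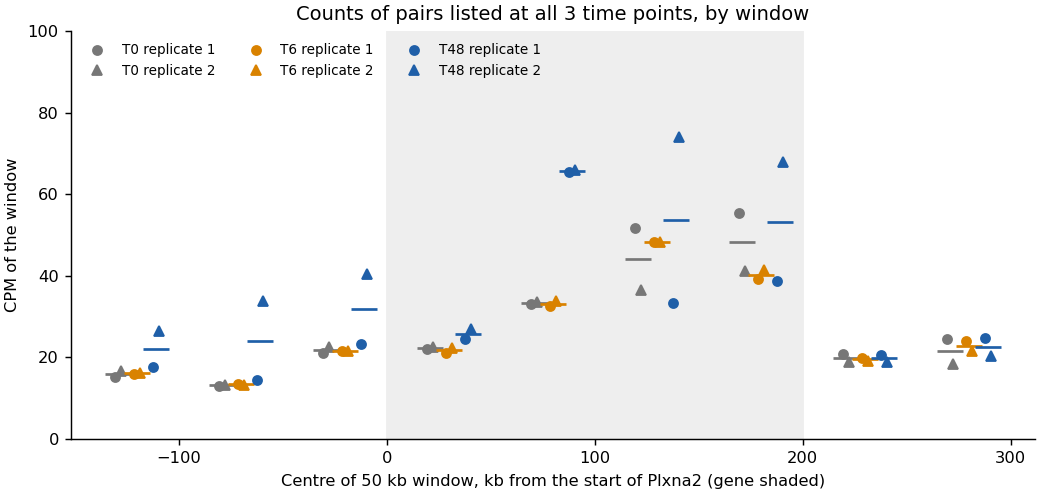
CPM of the 9 windows of 50 kb in each library (circles replicate 1, triangles replicate 2, dashes the mean of 2 libraries) in T0, T6 and T48 cells, against the centre of the window in kb from the start of Plxna2 (shaded). In the window from 196,500,001 both T48 libraries lie near 66 CPM, and in 5 other windows T48 replicate 2 lies above T48 replicate 1 by 8.9 to 40.9 CPM.

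In 5 other windows of the locus the height in T48 cells rested mainly on replicate 2. From 196,350,001 the CPM was 12.96 and 13.2 in T0 cells, 13.5 and 13.3 in T6 cells, and 14.3 and 33.9 in T48 cells. From 196,550,001 it was 51.7 and 36.5 in T0 cells, 48.2 and 48.3 in T6 cells, and 33.2 and 74.2 in T48 cells. Here the 2 T48 libraries lay on opposite sides of the T0 libraries. Without T48 replicate 2 the log2 T48 over T0 ratio was 0.13 from 196,350,001 and -0.42 from 196,550,001, against 0.86 and 0.27 with all libraries. It was likewise 0.14 against 0.46 from 196,300,001, 0.093 against 0.54 from 196,400,001, and -0.33 against 0.13 from 196,600,001. From 196,450,001, inside the gene, the CPM was 22.0 and 22.6 in T0 cells, 21.1 and 22.3 in T6 cells, and 24.5 and 26.8 in T48 cells. Both T48 libraries lay above the others there, with a log2 ratio of 0.20 over T0 (SE 0.069), which was 0.067 without the 2 bins. Without T48 replicate 2 this ratio was 0.13. Both T48 libraries also lay above the others from 196,300,001, 196,350,001 and 196,400,001. There T48 replicate 1 had 17.5, 14.3 and 23.2 CPM, against at most 16.6, 13.5 and 22.4 in T0 and T6 cells. The windows from 196,650,001 and 196,700,001, past the end of the gene, had ratios of -0.0075 and 0.062.

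These differences between the replicates lay in single bins, and their source was not tested. In 6 of 73 bins of the locus with at least 100 reads, T48 replicate 2 was at least 2-fold over replicate 1 after scaling to the median bin, where the share over the genome was 0.546%. These bins start at 196,330,001, 196,390,001, 196,400,001, 196,560,001, 196,590,001 and 196,600,001, and their log2 ratios of replicate 2 over replicate 1 lay between 1.28 and 1.54. The bin from 196,400,001 had 3.97 and 4.01 listed CPM in T0 cells, 5.60 and 5.69 in T6 cells, and 9.59 and 26.4 in T48 cells. At T0 the opposite was seen in 3 of 72 bins, from 196,560,001, 196,600,001 and 196,730,001, with replicate 1 at least 2-fold over replicate 2 (genome share 1.12%). The reverse directions were seen in 0 bins of the locus in T48 cells (genome share 0.961%) and 0 in T0 cells (0.626%). At T6 it was seen in 0 of 69 bins in either direction (genome shares 0.684% and 0.803%).

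Without the 2 bins and these 6, the locus was level across the 6 libraries. Its listed CPM was 167 and 160 in T0 cells, 163 and 158 in T6 cells, and 175 and 178 in T48 cells. With all pairs it was 240 and 211 in T0 cells, 247 and 243 in T6 cells, and 294 and 376 in T48 cells. The T48 libraries stayed the highest in both cases, by a far smaller margin once the 8 bins were left out. The 8 bins were chosen on these counts, so this comparison describes where the counts lie and tests nothing.

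After 6 h of ATRA, the counts of the locus did not pass the test for a difference from T0. The edgeR quasi-likelihood test called 0 of its 144 pairs and 0 of all 496,203 pairs (0%), with 1 and 15,733 at an unadjusted p under 0.05. That 1 pair of the locus, chosen after its value was seen, joined the bins from 196,600,001 and 196,630,001, with counts of 69 and 15 in T0 cells, 18 and 11 in T6 cells, and 16 and 29 in T48 cells (log2 of T6 over T0 -1.31, SE 0.55, edgeR adjusted p = 1.00). By size alone, 0 of the 144 were at least 2-fold higher (0.366% of all pairs) and 3 were at least 2-fold lower (0.287%). DESeq2 called 0 of 151 pairs of the locus and 1 pair in the genome. None of the 9 windows was called by edgeR (0 of 9, 0 with p under 0.05 before adjustment), nor was any of 49,387 in the genome (0 windows, 0%; 856 with p under 0.05 before adjustment). DESeq2 called 14 windows, of which 0 lay in the locus. The log2 ratios of T6 over T0 of the 9 windows lay between -0.27 and 0.12, and their median was -0.0080, against a median of -0.000093 over all windows. In the window from 196,500,001 the ratio was -0.0080 with an SE of 0.053. The pair of the 2 bins had a log2 ratio of 0.12 (SE 0.25, edgeR adjusted p = 1.00).

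The highest and the lowest ratio of T6 over T0 among single bins came from 2 bins of the gene. The bin from 196,560,001 had 21, 70 and 10 listed interactions in T0, T6 and T48 cells, and 48 of the 70 were listed in T6 cells alone. Over the locus, 154 of the 408 pairs listed in T6 cells were listed at that time alone, these 48 included. The bin was 1 of 48 in the genome that gained at least 40 interactions in T6 over T0 cells (0.0127%), and 32 of these lay on chromosome 1. This limit was set after the value of the bin was seen. Its listed CPM was 19.1 and 8.47 in T0 cells, 36.8 and 38.3 in T6 cells, and 6.92 and 19.7 in T48 cells. Both T6 libraries lay above all others, while the T0 libraries differed from each other more than 2-fold. In pairs listed throughout, its log2 ratio of T6 over T0 was 0.61 (SE 0.53, edgeR adjusted p = 1.00), a difference within the spread of the replicates. The bin from 196,600,001 had a ratio of -0.86 (SE 0.56, edgeR adjusted p = 1.00), with listed sums of 1018 and 247 in T0 cells, 347 and 205 in T6 cells, and 411 and 799 in T48 cells. Of 68 bins of the locus in this fit, which was added after the data were seen, 0 were called and 0 had an unadjusted p under 0.05, and 0 of 310,746 were called in the genome (0%).

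At T6 the contacts of the bin from 196,560,001 reached over a similar stretch to those of the 2 bins in T48 cells. Its 70 partners lay between the bins centred on 195,217,500 and 196,932,500, with 42 upstream and 28 downstream. With the union of the partners of the 2 bins in T48 cells it shared 43 bins, which is 61.4% of its partners and 41.7% of theirs. Its own pairs within 20 kb had medians of 100 and 52.5 counts in T6 cells, and those over 100 and up to 200 kb had 9 and 5.5. Without this bin the locus had 381 interactions in T0 cells and 338 in T6 cells.

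Long contacts from past the end of the gene were listed throughout. The 5 strongest pairs of at least 100 kb in T48 cells all ended in the bin from 196,785,001 to 196,790,000, outside the locus by 35 kb. The strongest joined it to the bin from 196,665,001, with counts of 53 and 34 in T0 cells, 47 and 24 in T6 cells, and 42 and 27 in T48 cells. In this pair the log2 T48 over T0 ratio was -0.23 (SE 0.17) and that of T6 over T0 was -0.13 (SE 0.17, edgeR adjusted p = 1.00), so its values differed by about the spread of the replicates. The other 4 joined it to the bins from 196,660,001 (44 and 24 counts in T48 cells), 196,685,001 (39 and 23), 196,645,001 (26 and 20) and 196,655,001 (27 and 12). No annotation of build mm9 was used, and the far bin is given no gene.

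That bin was listed with 47 bins of the locus in T0 cells, 51 in T6 cells and 34 in T48 cells, and with 28 of them at all 3 time points, at 40 to 340 kb. Over those 28 the count per 1,000,000 of counts in pairs listed at all 3 time points was 27.6 and 23.5 in T0 cells, 28.9 and 25.9 in T6 cells, and 26.1 and 26.7 in T48 cells. The groups overlapped, and the median log2 ratio of the 25 pairs in the fit was 0.12 for T6 over T0 and 0.033 for T48 over T0. The bin at the start of the gene was among the partners, with 13 and 5 counts in T0 cells, 18 and 3 in T6 cells, and 4 and 6 in T48 cells. The 13 pairs with a bin inside the gene had a median of -0.30 for T48 over T0, and the 12 past its end had a median of 0.23. With T48 set against T0 by replicate number, the median inside the gene was -0.74 for number 1 and 0.34 for number 2. Past the end it was 0.16 and 0.36. The numbers are not known to pair libraries, so the opposite signs inside the gene show the spread of these libraries alone.

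The 3 lowest ratios of T48 over T0 in the locus also belonged to this bin. Its pair with the bin from 196,570,001 had counts of 21 and 6 in T0 cells, 13 and 10 in T6 cells, and 7 and 5 in T48 cells (log2 -1.04, SE 0.42). This was the 1 pair of the locus at least 2-fold lower in T48 cells, where the share over all pairs was 0.702%. Without T0 replicate 1 its log2 ratio was -0.34, so this size rests on that library. The pairs with the bins from 196,585,001 and 196,580,001 had ratios of -0.92 each (SE 0.37 and 0.36). For the bin from 196,580,001 the ratio was -0.37 without T48 replicate 1 and -1.45 without T48 replicate 2.

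**Figure D5:**
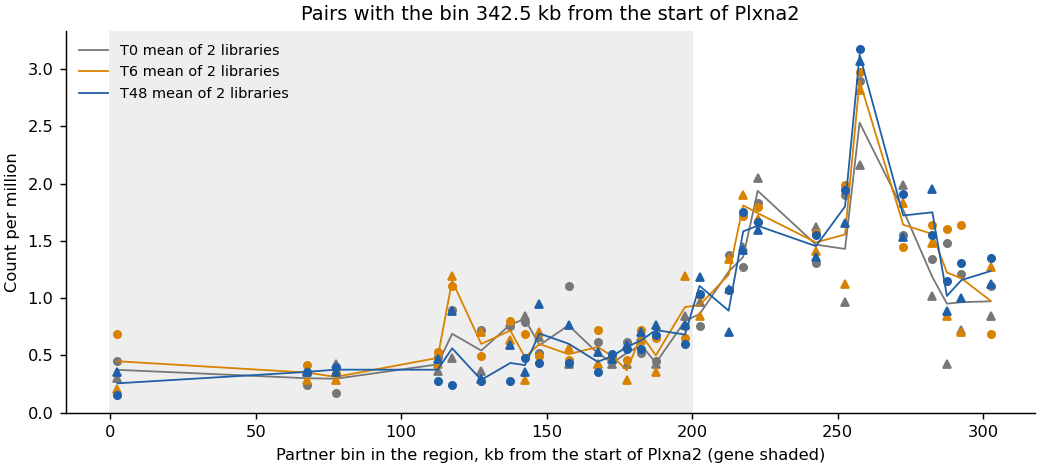
Counts per 1,000,000 of counts in pairs listed at all 3 time points, for the 28 pairs between the bin from 196,785,001 and bins of the locus, against the position of the partner in kb from the start of Plxna2 (shaded), by library (circles replicate 1, triangles replicate 2) with lines for the mean of 2 libraries. The time points overlap along the locus, and the highest values lie past the end of the gene.

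Windows elsewhere with the most similar course were sought over the 6 libraries. Likeness was the Euclidean distance between log2 CPM values centred on their mean, over 49,378 windows, of which the median distance was 1.16. The nearest window to that from 196,500,001 lay on the same chromosome from 129,250,001 (distance 0.21), with a CPM of 8.10 and 8.91 in T0 cells, 8.46 and 8.30 in T6 cells, and 15.02 and 14.8 in T48 cells. It had 47, 31 and 30 listed interactions, so the list did not grow there. The others lay on chromosome 15 from 69,550,001 (distance 0.255), chromosome X from 11,750,001 (0.30), chromosome 14 from 114,000,001 (0.30) and chromosome 6 from 101,150,001 (0.33). In these 4 the listed interactions in T0, T6 and T48 cells were 18, 15 and 33, then 29, 20 and 76, then 10, 9 and 48, and 85, 82 and 208. The distance is a description of these libraries and was the basis of the choice, so it has no test.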

How the data were processed

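Hi-C was measured in 6 libraries of P19 cells. The authors deposited raw counts of read pairs per pair of 5 kb bins in 1 table of all libraries; CASAVA 1.8.2, Bowtie2 and build mm9 are named per the submitters' processing notes, and the contact caller and the restriction enzyme are not given in the sources used here. Groups were taken from the sample labels. The members and lists were chosen with earlier results of these data known. From the counts, pairs listed at all 3 time points, and sums per window of 50 kb, were fitted over the whole table with all 6 libraries in edgeR 4.0.16 (R 4.3.3; TMM scaling, filterByExpr, quasi-likelihood F test, two-sided, Benjamini-Hochberg at 0.05). The code of both fits was tested on simulated data, counts with known fold changes in some pairs and windows. Ratios of T48 have an SE and no test. Leaving out unlisted pairs removes contacts that appear or vanish, so listed numbers are given beside the fits.

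Named pairs were the 8 highest and 3 lowest ratios of T48 over T0 with a mean count of at least 10. Named bins were the 5 largest gains and 3 largest losses of listed interactions, and named long contacts the 5 strongest of at least 100 kb at T48. Alternatives were DESeq2 1.42.0, its size factors, no filter, a replicate block, leaving out each library, other window sizes, other distance limits and other ways to count pairs. Mitochondrial pairs (4) were left out. A list of plexin, neuropilin and semaphorin genes was not analysed here, since no mm9 annotation was used.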

Additional observations from a re-analysis of the deposited data

How the results depend on the processing

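Under DESeq2 the test of T6 over T0 called 1 pair and 14 windows of the genome, against 0 and 0 with edgeR, and 0 of either lay in the locus. With all listed pairs it called 10,723 windows, where by construction unlisted pairs enter as 0 in both replicates. The replicate numbers of the labels were not taken as pairing, since only 2 are shared and no common origin is stated. Deviations of same-numbered libraries correlated at 0.345 to 0.408 over pairs and 0.647 to 0.740 over windows. The replicate block called 12 windows, of which 0 lay in the locus. With it, 2750 windows and 22,965 pairs had an unadjusted edgeR p under 0.05, against 856 and 15,733 in the main fit. Of these, 0 windows and 2 pairs lay in the locus with the block. For the window from 196,500,001, the T48 over T0 ratio (log2 0.98) came to 0.97 to 0.99 with 1 library left out, 1.10 with pairs within a window counted once per bin, 0.70 with pairs of at least 15 kb, 1.33 with all listed pairs, 1.14 and 0.60 in its 25 kb windows, 0.63 at 100 kb and -0.00085 without the 2 bins. That of T48 over T6 (0.99) was 0.96 to 1.01, 1.10, 0.71, 1.17, 1.15 and 0.57, 0.56 and 0.048 under the same settings. The ratio of listed numbers, 1.30, was 1.42 in a stricter list and 1.34 with pairs of at least 15 kb. The stricter list kept pairs with at least 1.5 times the lowest listed count of their distance in both libraries. The ratio was 1.10 with both bins in the locus and 0.997 without the 2 bins, a setting added after the data were seen. Of the ratios of T6 over T0, none of them called, some had the other sign. With all listed pairs this was -0.38 from 196,300,001, 0.13 from 196,400,001, 0.10 from 196,450,001 and 0.17 from 196,500,001. With pairs of at least 15 kb it was 0.22 from 196,400,001, -0.026 from 196,550,001 and 0.012 from 196,650,001. In 25 kb windows it was -0.042 from 196,300,001, -0.026 from 196,350,001, 0.0035 from 196,400,001, 0.034 from 196,500,001, -0.29 from 196,550,001 and 0.0042 from 196,650,001. It was 0.069 at 100 kb from 196,500,001 and 0.00089 with the replicate block from 196,400,001. With 1 library left out, the ranges were -0.051 to 0.086 from 196,300,001, -0.056 to 0.037 from 196,400,001, -0.077 to 0.00027 from 196,450,001, -0.031 to 0.019 from 196,500,001, -0.098 to 0.40 from 196,550,001, -0.089 to 0.057 from 196,650,001 and -0.10 to 0.31 from 196,700,001. The cause was not tested. Low counts of single far pairs limit what the list can show.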
